A study of Mus musculus with 12 samples.

Results

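The mitochondrial genome supplied 37 of the 55487 rows of the counts table, chosen as every row placed on chrM. They comprise 2 ribosomal RNAs (rRNAs), 13 messenger RNAs (mRNAs) and 22 transfer RNAs (tRNAs). Each of 6 mice gave a liver and a brain total RNA library, which makes 4 groups of 3 libraries. KO mice (A, C and F) lack functional METTL5, the enzyme that methylates one adenosine of the cytosolic 18S rRNA, through deletion of exon 2 of Mettl5 in the whole body by a Cre transgene driven by the CMV promoter, in a line backcrossed to C57BL/6. The controls (B, D and E) are labelled WT, although heterozygous mice are mentioned as controls in the study's account of its sequencing, and the labels give neither age, sex nor litter of any mouse. The Y-linked genes Ddx3y, Eif2s3y, Kdm5d and Uty summed to 2112 to 3302 counts in every library of mice A, B, C and D and to 1 to 20 in those of E and F, so each genotype had 2 mice with Y-linked expression and 1 without. WT stands here for the libraries that carry that label. Pairs of sequenced mice are mentioned in the study's text, while no label ties a given KO mouse to a given WT mouse, so no such pairing was used.

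Both strands of the circular mitochondrial genome are transcribed almost completely into long precursors. One precursor, called heavy-strand here after its promoter, carries both rRNAs, most mRNAs and most tRNAs, whereas the light-strand precursor carries mt-Nd6 and the remaining tRNAs. The tRNAs punctuate the precursors, and cutting them out releases the rRNAs and mRNAs. All mitochondrial mRNAs code for subunits of the oxidative phosphorylation complexes, and the rRNAs and tRNAs serve the ribosome that translates them. Liver and brain are both rich in mitochondria. In bulk tissue, fewer mitochondria or cells of a type and less RNA in each cannot be told apart.

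The livers had 16145754 to 21623180 counts per library and the brains 14403309 to 18365114, so a class share had a 95% Wilson interval at most 0.0474 percentage points wide and a count of 0 allowed up to 0.139 to 0.208 CPM (counts scaled to a common library size), the value of 3 counts in each library. Such limits cover counting error only. Mettl5, the targeted gene, had 8.11 to 14.9 normalised CPM in WT liver and 3.63 to 4.06 in KO liver, and 5.01 to 9.07 in WT brain and 3.33 to 3.95 in KO brain. Every KO library thus lay below every WT library of its tissue. The counts sum all exons of the gene, so they do not show where the remaining reads lie. Hepatocyte markers summed to 58316 to 77104 CPM in the livers, and neuronal markers to 2481 to 3082 CPM in the brains, all 6 members of each list being above 1 CPM in their tissue. In KO brain, the 8 olfactory bulb markers summed to 80.8 to 110.0 CPM against 21.99 to 30.89 in WT brain, the 9 cerebellum markers to 209 to 615 against 974 to 1473, and the 8 choroid plexus markers to 28.6 to 32.8 against 43.9 to 61.4. No bulb, cerebellum or choroid plexus marker was at 0 in a brain group, and only 3 of the 8 bulb markers reached 1 CPM in WT brain. Hepatocyte markers, low in brain, summed to 210.0 to 375 CPM in WT brain and 111 to 172 in KO brain. In liver hepatocyte markers overlapped between genotypes. The genes listed as astrocyte markers for brain (Gfap, Aqp4, Slc1a2 and Aldoc) summed there to 153 to 183 CPM in WT and 101 to 150 in KO. Skeletal muscle markers summed in liver to 0.206 to 0.511 CPM in WT and 0.601 to 0.9495 in KO. None of the 4 muscle markers reached 1 CPM there, and 2 were at 0 in each liver group. The sums given for both genotypes did not overlap between them in the tissue named, and their part in the mitochondrial values below was not tested.

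Which mitochondrial RNAs the table can show depends on copies of mitochondrial sequence in the nuclear genome, since the counting command given in the study's methods does not assign a read that matches equally well in 2 places. A block on chromosome 1 of mm10, chr1:24611535-24616197 on the minus strand, holds 7 annotated pseudogenes that copy stretches of 8 mRNAs between bases 6390 and 11042 of chrM. mt-Co2 was identical to Gm28661 over 681 bases, mt-Atp6 to Gm10925 over 678 bases, mt-Co3 to Gm28437 over 783 bases and mt-Nd4l to Gm10222 over 294 bases. mt-Nd3 is shown with its copy because a single base separates the pair over 345 aligned bases. The first 60 bases of both are given, with the difference in capitals (T3C, counted from the first base of mt-Nd3).
mt-Nd3, chrM:9459-9518, plus strand: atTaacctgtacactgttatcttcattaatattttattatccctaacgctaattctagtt
Gm28438, chr1:24613060-24613119, minus strand: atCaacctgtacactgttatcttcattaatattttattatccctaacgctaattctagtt

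Both genes lie in annotated exons, mt-Nd3 as a coding gene of complex I and Gm28438 as a pseudogene. Of the 249 windows of 100 bases, the read length, that fit in mt-Nd3, only 6 occurred in no other annotated transcript, and mt-Nd3 held 21 to 69 counts per library. mt-Co2 held 0 to 5 counts, mt-Atp6 0 to 4, mt-Co3 0 to 1 and mt-Nd4l 0 counts in all 12 libraries. These values lie near the limit that a count of 0 allows and say nothing about the level of the RNAs. The 7 pseudogenes together held only 10 to 34 counts per library, so the shared reads were not assigned to the nuclear rows either.

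mt-Atp8 also held at most 1 count, although its 105 windows were found in no other annotated transcript. Only its last 43 bases align to an annotated copy (Gm10925), and the stretch of chromosome 1 between the annotated pseudogenes was not compared here, since no genome sequence was used. mt-Atp8 and mt-Atp6, the complex V subunits, share those bases in 2 reading frames, and reads over them overlap 2 genes. The shared stretch, chrM:7927-7969 on the plus strand, opens with the mt-Atp6 start codon and ends with the mt-Atp8 stop codon, both in capitals.
mt-Atp8 and mt-Atp6 overlap: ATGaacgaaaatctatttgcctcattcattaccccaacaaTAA

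The remaining mRNAs could be counted over all or a part of their length. mt-Nd1, mt-Nd5, mt-Nd6 and mt-Cytb had 100.0% unique windows, mt-Nd2 had 96.8%, mt-Co1 69.2% and mt-Nd4 39.2%. Complex V could not be measured, and complex IV was measured through mt-Co1 alone. The windows over mt-Rnr1 and mt-Rnr2, the 12S and 16S rRNAs, were all unique.

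**Figure D1:**
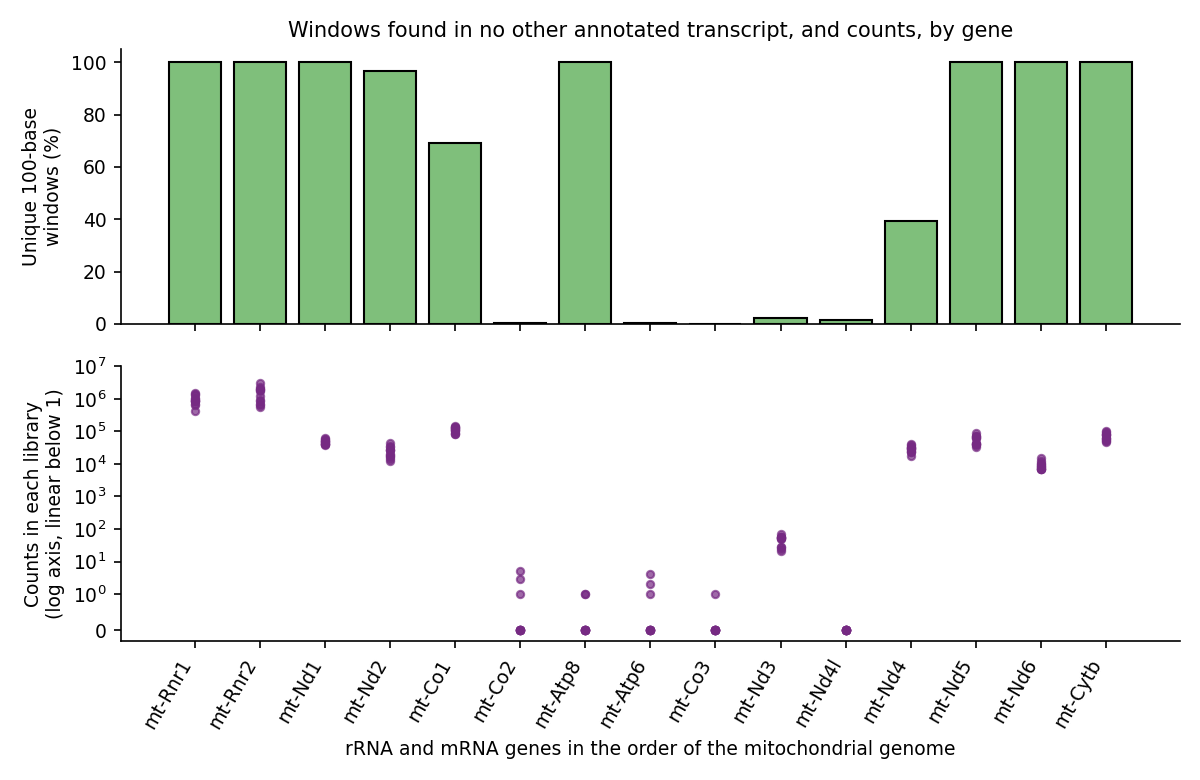
Share of 100-base windows of each mitochondrial rRNA and mRNA found in no other annotated transcript (bars, %, upper panel) and counts in each of the 12 libraries (points, lower panel, log axis that is linear below 1). The 5 mRNAs with at most 5 counts in any library lie between mt-Co1 and mt-Nd4, together with mt-Nd3, and mt-Atp8 among them has 100.0% unique windows.

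The 3 most counted tRNAs are shown with the middle 3 bases of the anticodon loop in capitals, since they carried most tRNA counts. mt-Tv, the valine tRNA, lies between the 2 rRNAs on the heavy strand, and mt-Tp (proline) and mt-Ty (tyrosine) are light-strand genes.
mt-Tv, chrM:1025-1093, plus strand: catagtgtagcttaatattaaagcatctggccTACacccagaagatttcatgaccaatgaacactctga
mt-Tp, chrM:15356-15422, minus strand: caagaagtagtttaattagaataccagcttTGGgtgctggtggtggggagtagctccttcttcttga
mt-Ty, chrM:5260-5326, minus strand: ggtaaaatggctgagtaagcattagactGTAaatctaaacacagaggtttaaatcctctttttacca

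The rRNAs dominated the mitochondrial counts, and in percentage points their share differed most between groups. They took 77.0% to 93.6% of the chrM counts of a library, the mRNAs 5.99% to 22.7% and the tRNAs 0.0881% to 0.368%. The library kit removes cDNA of cytosolic and mitochondrial rRNA before sequencing, so the rRNA counts are what that removal left. How much was removed in each library is not given in the sources used here, and its part in the rRNA values below was not tested. In WT liver the rRNAs made up 16.5% of all counts in mouse B, 10.7% in D and 16.9% in E, and in KO liver 7.89% in A, 8.66% in C and 7.36% in F. In brain the WT libraries held 17.7% (B), 7.63% (D) and 11.7% (E), and the KO libraries 31.6% (A), 21.4% (C) and 22.1% (F). KO livers therefore all lay below, and KO brains all above, the WT libraries of their tissue.

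The mean rRNA share was 14.7% ± 3.48 (SD, n = 3) in WT liver and 7.97% ± 0.652 in KO liver, a difference of -6.75 percentage points (exact permutation test, two-sided, p = 0.1, adjusted p = 0.15 over 12 shares). In brain it was 12.3% ± 5.07 in WT and 25.04% ± 5.68 in KO, a difference of 12.7 percentage points (exact permutation p = 0.1, adjusted p = 0.15). With 3 libraries against 3, 0.1 is the smallest p the test allows, so no share could pass a threshold of 0.05.

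The mRNA share differed by less than the spread between libraries. It was 2.31% ± 0.127 in WT liver and 2.29% ± 0.180 in KO liver (exact permutation p = 0.7), and 1.81% ± 0.246 in WT brain and 1.95% ± 0.116 in KO brain (exact permutation p = 0.4). The groups of both tissues overlapped. Over counts without the 2 rRNAs, the difference was -0.221 percentage points in liver and 0.546 in brain, again with overlapping groups at exact permutation p = 0.3 and 0.2.

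tRNA reads were rare and varied up to several-fold within a group. Their share was 0.0165% (B), 0.0150% (D) and 0.0250% (E) in WT liver and 0.0140% (A), 0.0193% (C) and 0.0280% (F) in KO liver. In brain it was 0.0717% (B), 0.0303% (D) and 0.0205% (E) in WT and 0.124% (A), 0.0271% (C) and 0.0480% (F) in KO. Groups overlapped in both tissues (exact permutation p = 0.7 in liver and 0.6 in brain), and KO brain A stood above all other libraries.

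**Figure D2:**
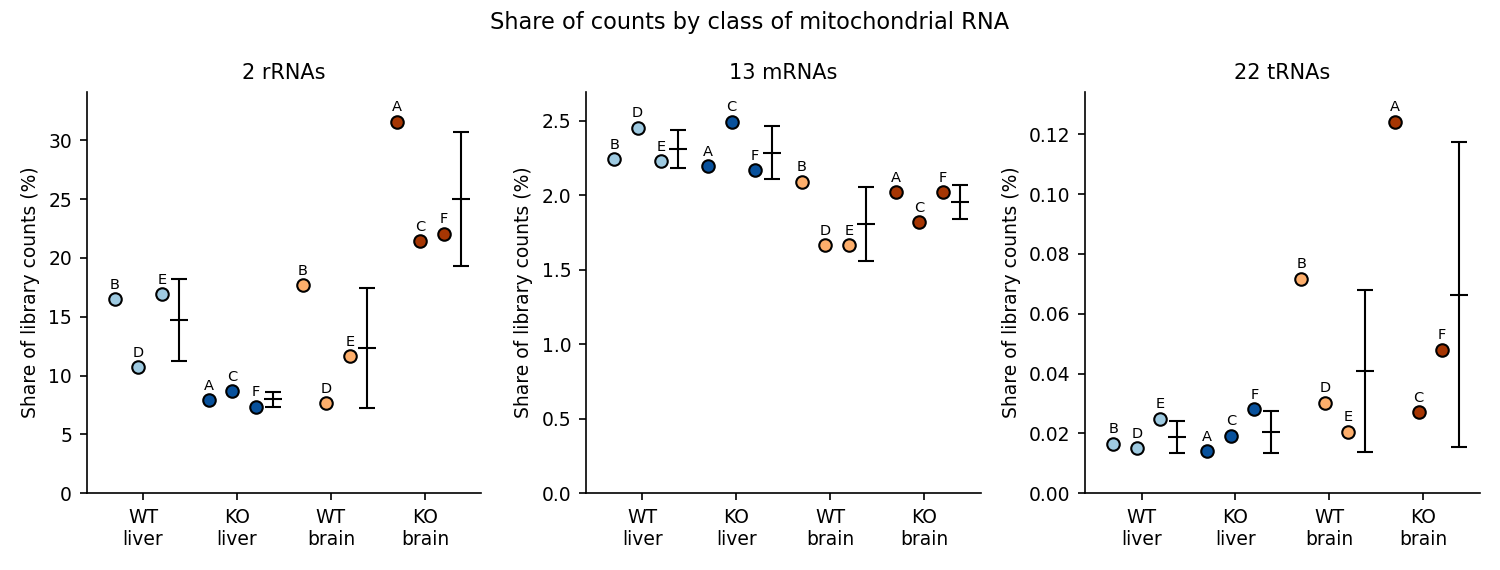
Share of library counts (%) held by the mitochondrial rRNAs, mRNAs and tRNAs in each library (points, lettered by mouse), with the mean ± SD of each group of 3 beside them. The rRNA share of the KO livers lies below that of the WT livers and that of the KO brains above that of the WT brains, whereas the mRNA share stays between 1.66% and 2.49%.

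The comparison of genotypes was then made for each RNA with edgeR's quasi-likelihood test. Its p-values were adjusted by Benjamini-Hochberg over every gene tested in that tissue, and genes under 0.1 were called. In liver, 22 of the 37 mitochondrial rows passed the filter on low counts and 0 were called, where 0% of the 14075 genes tested were called in all. In brain, 24 of the 37 passed and 0 were called, where 0.0640% of 17188 genes were called, all of them higher in KO. At an unadjusted p under 0.05, 2 mitochondrial RNAs were lower in KO liver (4.57% of all genes) and 8 were higher in KO brain (5.96% of all genes). None lay the other way, where 2.76% of all genes were higher in KO liver and 5.01% lower in KO brain. After the offset for GC content, 2 lay higher and 1 lower in liver (2.77% and 3.77% of all genes) and 4 higher and 1 lower in brain (5.95% and 6.71% of all genes). The 8 were mt-Rnr1, mt-Rnr2, mt-Nd1, mt-Nd4, mt-Nd5, mt-Cytb, mt-Tl1 and mt-Ti.

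mt-Rnr2, the 16S rRNA of the large mitochondrial ribosomal subunit, showed the larger difference in liver. It took 10.6% (B), 5.23% (D) and 11.2% (E) of the counts in WT liver and 3.56% (A), 3.89% (C) and 3.58% (F) in KO liver. The WT liver of mouse D lay nearer to the KO livers than to the other WT livers, though the groups did not overlap. The log2 fold change was -1.39 (SE 0.28, adjusted p = 0.383 with edgeR). DESeq2 called it at -1.38 (adjusted p = 8.05e-05), where 0.864% of genes were called lower, and edgeR without mouse D called it at -1.66 (adjusted p = 0.0208), where 0.542% were. With no filter on low counts both rRNAs were called in liver (adjusted p = 1.88e-15 for mt-Rnr2 and 0.0534 for mt-Rnr1), where 1.22% of genes were called lower.

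mt-Rnr1, the 12S rRNA of the small subunit, differed less in liver. Its share was 5.89% (B), 5.48% (D) and 5.77% (E) in WT and 4.33% (A), 4.77% (C) and 3.78% (F) in KO. The WT livers lay close together, mouse D included, and above all KO livers. The log2 fold change was -0.50 (SE 0.18, adjusted p = 0.548 with edgeR). In liver, mt-Rnr1, mt-Rnr2 and mt-Nd5 had all 3 KO libraries below all 3 WT libraries, which 6.44% of all genes had, and mt-Ty had all KO libraries above, which 6.50% had.

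In brain both rRNAs stood higher in KO by a like amount. mt-Rnr1 held 6.17% (B), 2.40% (D) and 4.79% (E) of the counts in WT brain and 10.3% (A), 7.21% (C) and 8.87% (F) in KO brain. mt-Rnr2 held 11.5% (B), 5.22% (D) and 6.87% (E) in WT brain and 21.3% (A), 14.2% (C) and 13.2% (F) in KO brain. Neither rRNA's groups overlapped, with WT brain B nearest to the KO libraries and WT brain D lowest. The log2 fold change was 1.21 for mt-Rnr1 (SE 0.37, adjusted p = 0.355 with edgeR) and 1.28 for mt-Rnr2 (SE 0.38, adjusted p = 0.355 with edgeR). DESeq2 called both, at adjusted p = 0.0206 and 0.0125, together with mt-Nd4 (adjusted p = 0.0344), where 0.801% of genes were called higher. Without the filter on low counts edgeR called 8 mitochondrial RNAs in brain (mt-Rnr1, mt-Rnr2, mt-Nd1, mt-Nd2, mt-Nd4, mt-Cytb, mt-Ti and mt-Tl2), where 1.56% of genes were called higher.

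Among nuclear rows, 2 that took large shares of the counts were looked at beside these, after their counts were seen. CT010467.1, annotated as an rRNA on chromosome 17, took 0.570% ± 0.199 of the counts in WT brain and 0.924% ± 0.520 in KO brain, where KO brain A held 1.498%. In liver it took 1.71% ± 0.210 in WT and 1.65% ± 0.350 in KO. Its log2 fold change was 0.96 in brain (SE 0.47, adjusted p = 0.479 with edgeR) and -0.14 in liver (SE 0.19, adjusted p = 0.930 with edgeR). Gm23935 took 5.41% to 7.61% of the counts in WT liver and 8.53% to 9.05% in KO liver, with no overlap and KO above WT, and 3.03% to 3.76% in WT brain and 3.14% to 3.63% in KO brain, with overlap. Its log2 fold change was 0.30 in liver (SE 0.19, adjusted p = 0.799 with edgeR) and 0.17 in brain (SE 0.20, adjusted p = 0.744 with edgeR). The part of these rows in the mitochondrial shares was not tested.

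The ratio of the 2 rRNAs needs no library size. mt-Rnr2 had 1.80 (B), 0.956 (D) and 1.94 (E) times the counts of mt-Rnr1 in WT liver and 0.823 (A), 0.814 (C) and 0.947 (F) times in KO liver. Every KO liver lay below every WT liver, with WT liver D only just above KO liver F. In brain the ratio was 1.87 (B), 2.17 (D) and 1.43 (E) in WT and 2.07 (A), 1.97 (C) and 1.49 (F) in KO, and the groups overlapped. The difference in mean log2 ratio was -0.80 in liver (exact permutation p = 0.1, adjusted p = 0.267 over 16 ratios) and 0.02 in brain (exact permutation p = 0.9, adjusted p = 0.96). Both rRNAs come from the same precursor and differ in length, with 856 unique windows in mt-Rnr1 and 1483 in mt-Rnr2.

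The ratio of rRNA to mRNA counts separated the genotypes in both tissues, in opposite directions. It was 7.36 (B), 4.36 (D) and 7.60 (E) in WT liver and 3.59 (A), 3.47 (C) and 3.39 (F) in KO liver. It was 8.47 (B), 4.58 (D) and 7.005 (E) in WT brain and 15.6 (A), 11.8 (C) and 10.9 (F) in KO brain. The KO livers lay within a narrow range, and mouse D was lowest among the WT libraries of both tissues. The difference in mean log2 ratio was -0.84 in liver and 0.96 in brain, each at the smallest exact permutation p of 0.1 (adjusted p = 0.267). In the edgeR fit with mitochondrial mRNA as library size, mt-Rnr1 and mt-Rnr2 stood at -0.40 and -1.30 in liver and 0.89 and 0.96 in brain on the log2 scale, and after the GC offset at -0.32 and -1.17 in liver and 0.85 and 0.90 in brain, none of them called.

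**Figure D3:**
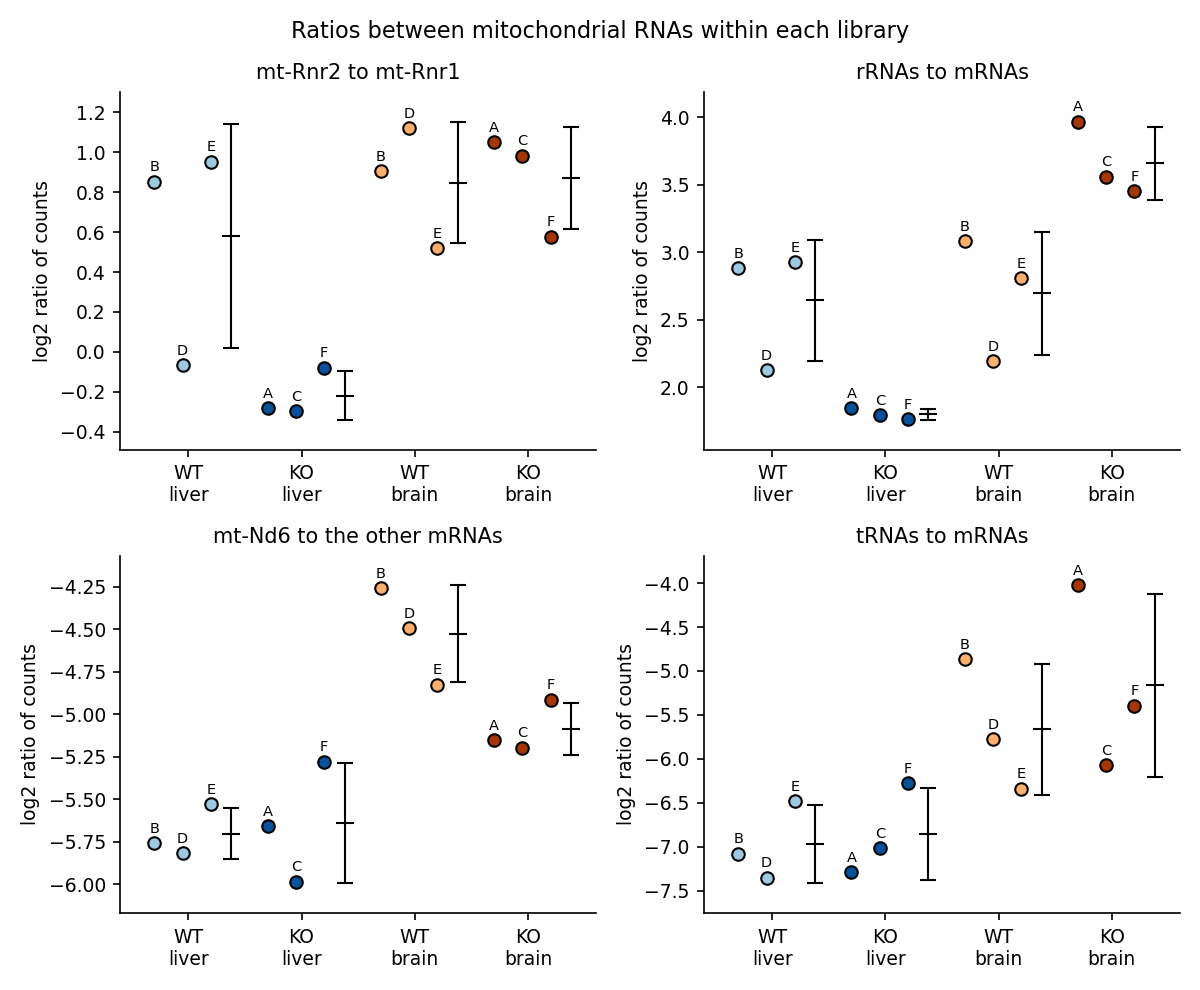
Log2 ratio of counts within each library (points, lettered by mouse) for 4 pairs of mitochondrial RNAs or RNA classes, with the mean ± SD of each group of 3 beside them. KO livers lie lowest in the upper panels, KO brains lie highest in the ratio of rRNAs to mRNAs, and both brain groups lie above the liver groups in the ratio of mt-Nd6 to the other mRNAs.

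Levels of different mitochondrial RNAs were compared as CPM (scaled over all 12 libraries) per 1000 unique windows, which allows for the part of each gene that could be counted. In all 4 groups the rRNAs stood first and mt-Co1, the catalytic subunit of complex IV, was the highest mRNA. mt-Co1 stood at 9337 ± 1296 in WT liver, 9207 ± 980 in KO liver, 4955 ± 669 in WT brain and 4946 ± 402 in KO brain. In liver mt-Cytb, the complex III subunit, came next at 5813 ± 369 in WT and 5917 ± 712 in KO, followed by mt-Nd4, mt-Nd1, mt-Nd5, mt-Nd2 and mt-Nd6. Among these, mt-Nd4 and mt-Nd1, and mt-Nd5 and mt-Nd2, overlapped in WT liver, and mt-Cytb and mt-Nd4, and mt-Nd5 and mt-Nd2, in KO liver. In brain mt-Nd1, mt-Cytb and mt-Nd4 followed mt-Co1 with overlapping ranges, at 2329 ± 492, 2268 ± 558 and 1882 ± 456 in WT and 3386 ± 568, 3229 ± 534 and 3235 ± 482 in KO. mt-Nd2 was lowest in brain, at 746 ± 236 in WT and 1086 ± 211 in KO, where its range overlapped that of the next gene up (mt-Nd5 in WT, mt-Nd6 in KO), whereas mt-Nd6, the light-strand mRNA, was lowest in liver at 1345 ± 31.8 in WT and 1332 ± 173 in KO.

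**Figure D4:**
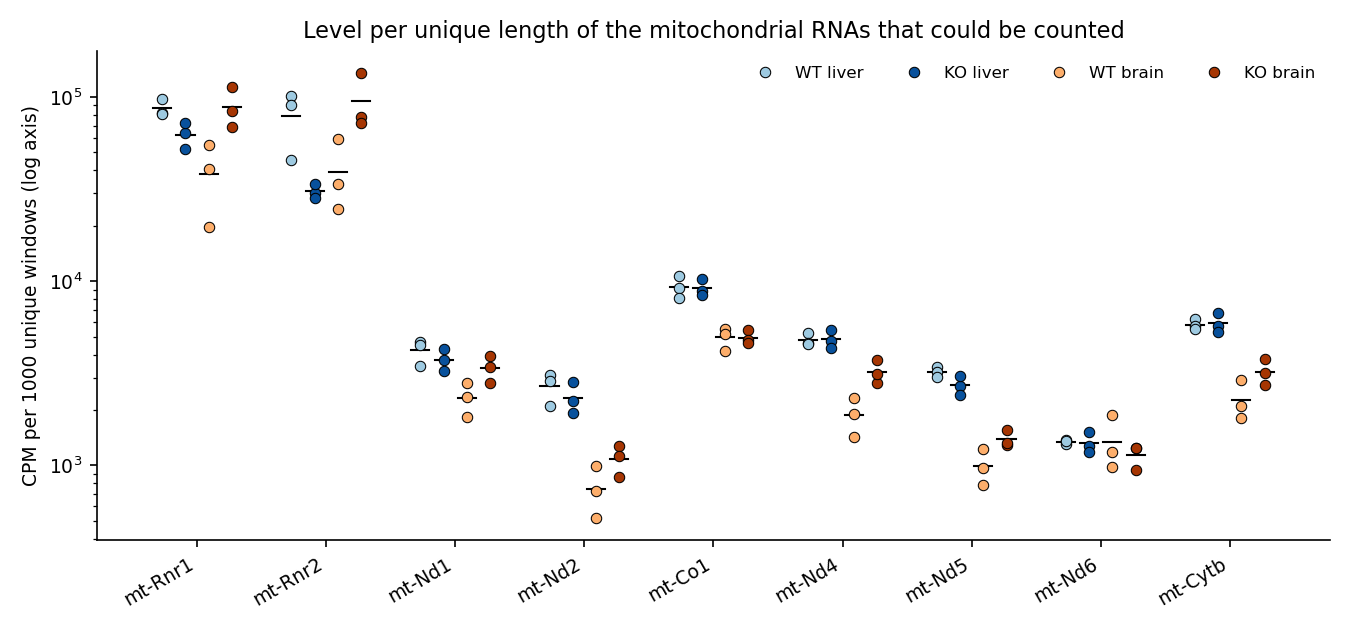
CPM per 1000 unique windows (log axis) of the 2 rRNAs and the 7 mRNAs with at least 420 unique windows, in each library (points) with the mean of each group (lines). mt-Co1 is the highest mRNA in every group, and mt-Nd2 is lower in both brain groups than in both liver groups.

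Among complex I mRNAs, mt-Nd4 had the smallest p in brain. It held 0.154% (B), 0.102% (D) and 0.131% (E) of the counts in WT brain and 0.201% (A), 0.173% (C) and 0.196% (F) in KO brain. The groups did not overlap, as for mt-Rnr1, mt-Rnr2 and mt-Nd5 among the mitochondrial RNAs and 8.40% of all genes with KO above WT. The log2 fold change was 0.78 (SE 0.21, adjusted p = 0.320 with edgeR), whereas in liver it was -0.02 (SE 0.15, adjusted p = 0.993 with edgeR). Reads over the first 876 bases of mt-Nd4 are shared with Gm28439 on chromosome 1, so its value rests on the last part of the gene.

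mt-Nd5 lay on opposite sides in the 2 tissues. Its share was 0.418% (B), 0.431% (D) and 0.433% (E) in WT liver and 0.371% (A), 0.412% (C) and 0.353% (F) in KO liver. In brain it was 0.279% (B), 0.192% (D) and 0.229% (E) in WT and 0.286% (A), 0.272% (C) and 0.284% (F) in KO. The raw shares of the brain groups overlapped through WT brain B, while after normalisation all KO brains lay above all WT brains. The log2 fold change was -0.26 in liver (SE 0.15, adjusted p = 0.782 with edgeR) and 0.49 in brain (SE 0.20, adjusted p = 0.415 with edgeR).

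Of the other complex I mRNAs none was called in either tissue by edgeR with the filter, while without it mt-Nd1 (adjusted p = 0.0501) and mt-Nd2 (adjusted p = 0.0503) were among the 8 called in brain. In brain the log2 fold change was 0.54 for mt-Nd1 (SE 0.21, adjusted p = 0.407) and 0.54 for mt-Nd2 (SE 0.25, adjusted p = 0.459), both with edgeR. In liver it was -0.20 for mt-Nd1 (SE 0.18) and -0.23 for mt-Nd2 (SE 0.20). With a library left out these values ranged from -0.32 to -0.097 and from -0.40 to -0.10 in liver and from 0.39 to 0.71 and from 0.33 to 0.81 in brain. mt-Nd3 rests on at most 69 counts and differed by 0.79 in brain (SE 0.53) and -0.31 in liver (SE 0.35). mt-Nd6 was the only tested mitochondrial RNA below 0 in brain, at -0.24 (SE 0.24, adjusted p = 0.701 with edgeR). WT brain B held 0.104% mt-Nd6 counts, against 0.0708% in D and 0.0568% in E and 0.0484% to 0.0649% in the KO brains, and without mouse B the difference turned to 0.09.

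mt-Cytb of complex III differed by 0.51 in brain (SE 0.22, adjusted p = 0.435 with edgeR) and by less than 0.01 in either direction in liver (SE 0.15). mt-Co1 of complex IV showed no difference above its error in either tissue, at 0.00 in brain (SE 0.18) and -0.05 in liver (SE 0.17). It took 28.4% to 44.3% of the mRNA counts, the highest share in WT brain D. The ratio of complex IV to complex I mRNA counts was 0.831 (B), 1.26 (D) and 0.796 (E) in WT brain and 0.592 (A), 0.704 (C) and 0.594 (F) in KO brain, with no overlap and a log2 difference of -0.58 (exact permutation p = 0.1, adjusted p = 0.267), which was -0.37 without mouse D. In liver this ratio overlapped at 0.599 to 0.745 in WT and 0.719 to 0.779 in KO (log2 difference 0.16, exact permutation p = 0.3, and 0.082 to 0.24 with a mouse left out). The ratio of complex III to complex I mRNA counts was 0.416 to 0.464 in WT liver and 0.485 to 0.513 in KO liver, with no overlap (log2 difference 0.19, exact permutation p = 0.1), and 0.414 to 0.463 in WT brain and 0.419 to 0.435 in KO brain, with overlap. mt-Nd5 and mt-Cytb, far from the heavy-strand promoter, had 1.78 to 2.24 times the counts of mt-Nd1 and mt-Nd2, near to it, in WT liver and 1.97 to 2.15 times in KO liver, and 1.44 to 1.59 times in WT brain and 1.42 to 1.59 times in KO brain, so this ratio did not separate the genotypes.

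**Figure D5:**
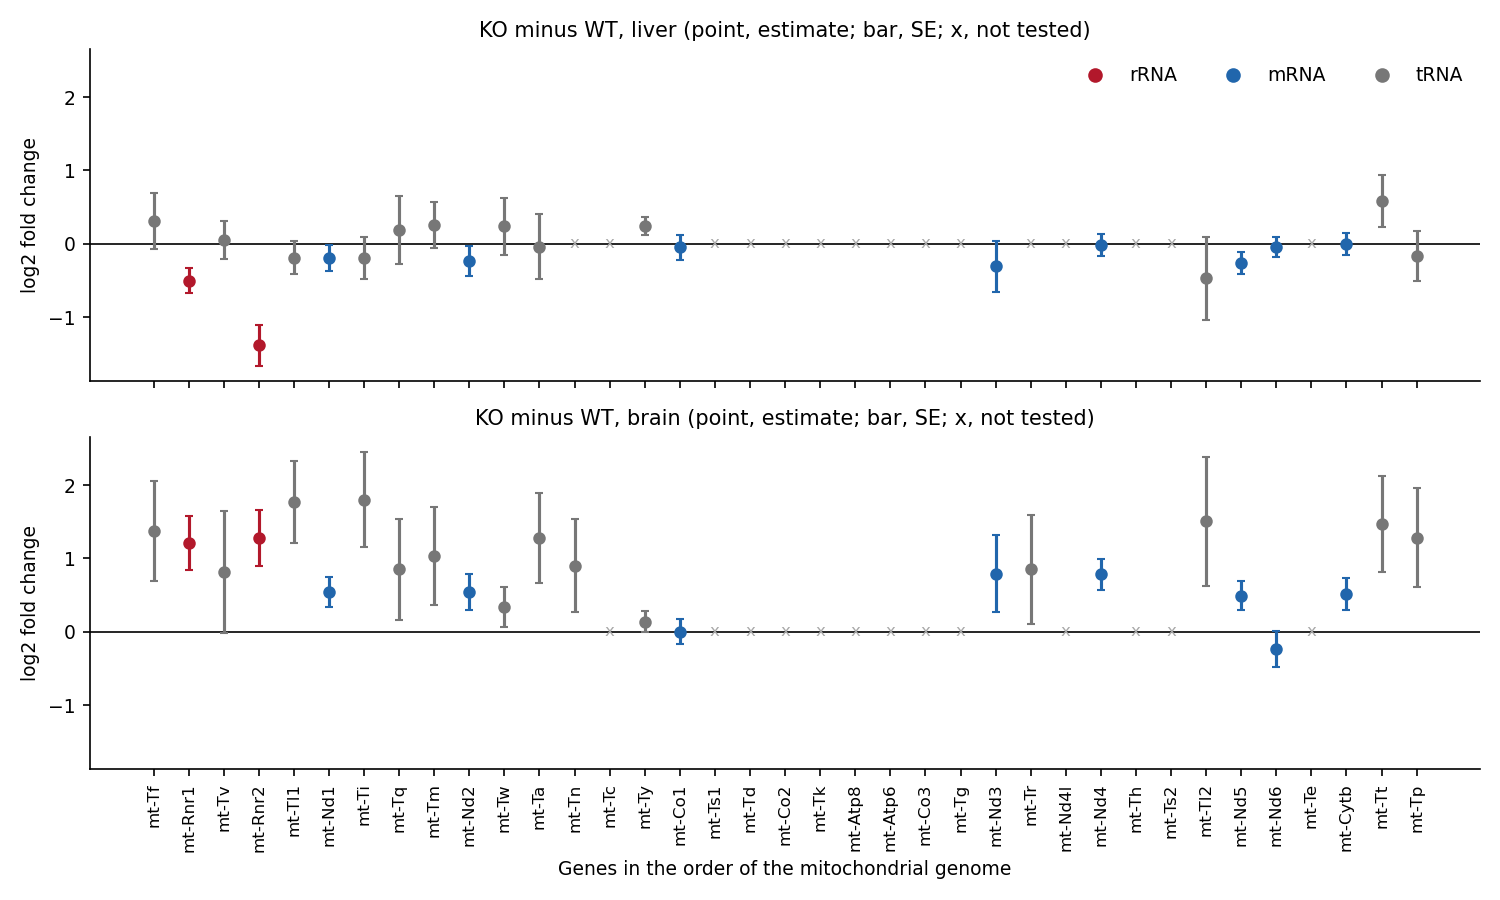
Log2 fold change of KO against WT with its SE for each mitochondrial RNA tested in liver (22 genes) and brain (24 genes), in genome order, coloured by class, with rows that were not tested marked by x. In liver the rRNAs lie lowest and the mRNAs near 0, and in brain all but mt-Nd6 lie above 0, mt-Co1 at 0.00.

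Over the tested members the median log2 fold change was -0.05 in liver, with 7 of 22 above 0, where all genes had a median of -0.00 and 49.6% above 0. In brain the median was 0.85, with 23 of 24 above 0, where all genes again had a median of -0.00 and 49.8% above 0. The 24 members share libraries and precursors and are not separate observations. Without KO brain A the median was 0.35, and without WT brain B it was 1.56. After the GC offset the median was 0.42 in brain and 0.13 in liver, where all genes stood at -0.01 and 0.00. With mitochondrial mRNA as library size it was 0.49 in brain and 0.06 in liver, where all genes stood at -0.36 and 0.11.

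The 5 tRNA rows mt-Ts1, mt-Td, mt-Tk, mt-Tg and mt-Th held 0 counts in every library. Of these, mt-Ts1, mt-Td, mt-Tk and mt-Tg, like mt-Tr with 3 to 54 counts, lie between the mRNAs copied on chromosome 1, and mt-Th lies outside that stretch. The tRNAs are 59 to 75 bases long, shorter than a full read, and a read that also covers a neighbouring gene on the same strand is not counted. mt-Tv took 25.5% to 28.7% of the tRNA counts in liver and 35.0% to 56.1% in brain. It had 987 (B), 667 (D) and 1101 (E) counts in WT liver and 587 (A), 937 (C) and 1412 (F) in KO liver. In brain it had 6069 (B), 2627 (D) and 1320 (E) counts in WT and 9014 (A), 1516 (C) and 2947 (F) in KO, so its highest value was in KO brain A and its spread within a group exceeded the difference between genotypes.

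mt-Tp, shown above, had 640 to 1624 counts in WT liver, 638 to 1412 in KO liver, 851 to 2042 in WT brain and 817 to 4303 in KO brain. mt-Ty was the steadiest tRNA, at 425 to 517 counts in WT liver, 501 to 642 in KO liver, 530 to 620 in WT brain and 382 to 554 in KO brain. After normalisation all KO livers lay above all WT livers. It differed by 0.24 on the log2 scale in liver (SE 0.13, adjusted p = 0.742 with edgeR) and by 0.14 in brain (SE 0.14, adjusted p = 0.707 with edgeR). The tRNAs for leucine and isoleucine at the near end of the heavy strand, mt-Tl1 and mt-Ti, had the smallest tRNA p-values in brain, with log2 fold changes of 1.78 (SE 0.56, adjusted p = 0.378 with edgeR) and 1.80 (SE 0.65, adjusted p = 0.396 with edgeR). mt-Tl1 had 278, 183 and 150 counts in WT brain and 900, 214 and 450 in KO brain, and mt-Ti 33, 22 and 15 against 113, 24 and 44, and without KO brain A the log2 fold changes were 0.97 and 0.82. Without the filter on low counts edgeR called mt-Ti (adjusted p = 0.000477) and not mt-Tl1 (adjusted p = 0.558). The ratio of light-strand to heavy-strand tRNA counts overlapped between genotypes in both tissues, at 0.935 to 1.22 in all livers and 0.407 to 0.896 in all brains. Between the tissues it differed by 0.86 on the log2 scale (exact permutation p = 0.00216, adjusted p = 0.00577, higher in the liver of 6 of 6 mice, and exact p = 0.0312, adjusted 0.0625, when paired by mouse).

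Between the tissues, most counted mRNAs were higher in liver. The fit over all 12 libraries called 12 of the 24 tested members in WT, all higher in liver (34.8% of 18944 genes were called higher in liver and 43.6% lower). In KO it called 11 of 24, with 6 higher and 5 lower in liver (35.5% and 44.6% of all genes). mt-Nd2, mt-Nd4, mt-Nd5, mt-Cytb, mt-Co1 and mt-Ty were called higher in liver in both genotypes. In WT, mt-Rnr1, mt-Rnr2, mt-Nd1, mt-Nd3, mt-Tl1 and mt-Ti were called higher in liver as well, and in KO, mt-Rnr2, mt-Tv, mt-Tq, mt-Tm and mt-Tt were called lower in liver. The 4 tRNA calls in KO were lost without mouse A, where mt-Tv stood at -0.57 (adjusted p = 0.5003), mt-Tm at -0.35 (0.584), mt-Tq at -0.038 (0.959) and mt-Tt at -0.22 (0.730) with edgeR. With mouse as a block mt-Tq (adjusted p = 0.187) and mt-Tt (adjusted p = 0.104) were not called either. In WT the calls of mt-Nd3 (adjusted p = 0.177 and 0.146) and mt-Tl1 (0.218 and 0.313) were lost without mouse D and without mouse E, that of mt-Ty (0.134) without D and that of mt-Rnr2 (0.156) without E. In KO that of mt-Nd4 (adjusted p = 0.193) was lost without mouse C. With no filter on low counts, mt-Tl1 (adjusted p = 0.200) and mt-Ty (0.170) were not called in WT by edgeR. Nor were mt-Tm (adjusted p = 0.110), mt-Tq (0.202) and mt-Tt (0.151) in KO. The KO count was 7 without mouse A, 14 without C and 16 without F, where 74.4%, 74.9% and 74.3% of all genes were called.

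Among the mRNAs, mt-Nd2 and mt-Nd5 of complex I had the largest tissue differences in both genotypes in the main fit, though not with mitochondrial mRNA as library size. mt-Nd2 was higher in liver by 1.85 on the log2 scale in WT (SE 0.26, adjusted p = 1.96e-05 with edgeR) and by 1.10 in KO (SE 0.26, adjusted p = 0.0014). mt-Nd5 was higher by 1.70 in WT (SE 0.21, adjusted p = 4.07e-06) and by 0.97 in KO (SE 0.20, adjusted p = 0.000576). mt-Nd6 did not pass, at less than 0.01 in either direction in WT (SE 0.22) and 0.22 in KO (SE 0.22). It was called in both genotypes on other scales, higher in liver after the GC offset (1.36 in WT and 2.28 in KO) and lower with mitochondrial mRNA as library size (-1.15 and -0.52). Within libraries, the ratio of mt-Nd6 to the other mRNAs was 0.0158 to 0.0258 in the 6 livers and 0.0273 to 0.0523 in the 6 brains. That ratio differed between tissues by -0.86 on the log2 scale (exact permutation p = 0.00216, adjusted p = 0.00577 over 8 ratios, lower in the liver of 6 of 6 mice; paired by mouse p = 0.0312 by an exact sign-flip test, adjusted 0.0625).

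Relative to mt-Nd1 and mt-Nd2 of the same library, the far genes mt-Nd5 and mt-Cytb had more counts in liver, with a log2 ratio of 0.99 ± 0.13 against 0.59 ± 0.07 in brain (n = 6, exact permutation p = 0.00216, adjusted p = 0.00577, higher in the liver of 6 of 6 mice; paired by mouse exact p = 0.0312, adjusted 0.0625). With mitochondrial mRNA as library size, liver minus brain stood at 0.53 in WT and 0.20 in KO for mt-Nd5, 0.19 and 0.11 for mt-Cytb, 0.68 and 0.34 for mt-Nd2 and -0.33 and -0.61 for mt-Nd1. On that scale mt-Nd2 and mt-Nd1 lay on opposite sides of 0, while mt-Nd5 and mt-Cytb both lay above it. The share of all mRNAs was 2.30% ± 0.140 in liver and 1.88% ± 0.190 in brain (exact permutation p = 0.00216, adjusted p = 0.0130 over 6 shares; higher in the liver of 6 of 6 mice, paired by mouse exact sign-flip p = 0.0312, adjusted 0.188). Over counts without the rRNAs this difference was 0.246 percentage points and did not pass (exact permutation p = 0.253). tRNA to mRNA counts were lower in the liver of 6 of 6 mice, by -1.50 on the log2 scale (exact permutation p = 0.00433, adjusted p = 0.00866, and exact p = 0.0312, adjusted 0.0625, when paired by mouse).

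mt-Rnr2 was higher in liver by 1.01 in WT (SE 0.38, adjusted p = 0.0278 with edgeR) and lower in liver by -1.62 in KO (SE 0.39, adjusted p = 0.00169 with edgeR). mt-Rnr1 was higher in liver by 1.18 in WT (SE 0.34, adjusted p = 0.00592 with edgeR), and the value in KO was -0.50 (SE 0.33, adjusted p = 0.186 with edgeR). The raw WT shares of counts overlapped between the tissues for mt-Rnr2 (exact permutation p = 0.9) and for mt-Rnr1 (exact permutation p = 0.4). The tissue values depend on the scale. With mitochondrial mRNA as library size, mt-Rnr1 in WT stood at 0.03 (adjusted p = 0.918 with edgeR) and mt-Rnr2 in WT at -0.11 (adjusted p = 0.787 with edgeR). The median log2 difference of all genes between liver and brain was -0.21 in WT and -0.22 in KO, -1.40 and -0.99 with the mitochondrial mRNAs as library size, and 0.22 and 0.25 after an offset for GC content. With mitochondrial mRNA as library size, 2 members were called higher and 9 lower in the liver of WT (16.7% and 67.2% of all genes), and 0 higher and 15 lower in KO (21.2% and 57.9%). With the GC offset, 18 in WT and 17 in KO were called, all higher in liver (44.4% and 45.3% of all genes, with 37.2% and 37.1% called lower), and mt-Rnr2 in KO stood at 0.24.

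Whether the genotype difference itself differed between the tissues was tested as the liver difference minus the brain difference. Over all 12 libraries edgeR called 0 of the 24 members and 0% of 18944 genes, while 7 members had an unadjusted p under 0.05, all with the liver value lower (5.07% of all genes). mt-Rnr2 stood at -2.64 (SE 0.55, adjusted p = 0.132) and mt-Rnr1 at -1.68 (SE 0.47, adjusted p = 0.237). When mouse was fitted as a block, so that each animal's liver was set against its own brain, edgeR called mt-Rnr2 at -2.59 (SE 0.43, adjusted p = 0.0540) and no other member, where 0.338% of genes were called lower. DESeq2 called mt-Rnr2 (adjusted p = 0.000257) and mt-Rnr1 (adjusted p = 0.0162), where 1.49% of genes were called lower, and edgeR without mouse D called mt-Rnr2 (adjusted p = 0.0465), where 0.421% were. mt-Nd4 and mt-Nd5 stood at -0.77 (SE 0.29, adjusted p = 0.379) and -0.73 (SE 0.28, adjusted p = 0.396), while mt-Co1 stood at -0.02 (SE 0.28).

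Taken within each mouse, the rRNA share of the liver minus that of the brain was 2.39 ± 3.30 percentage points in WT mice and -17.1 ± 5.83 in KO mice (n = 3 each). The 3 KO mice all lay below the 3 WT mice, with a difference of -19.5 percentage points (exact permutation p = 0.1, adjusted p = 0.15 over 6 shares). The log2 ratio of rRNAs to mRNAs, liver minus brain, was -0.05 ± 0.16 in WT mice and -1.86 ± 0.23 in KO mice (exact permutation p = 0.1, adjusted p = 0.32 over 8 ratios). For both values, the separation of genotypes within each tissue given above fixes this p of 0.1 in advance.

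Nuclear genes that transcribe, process or regulate mitochondrial RNA were counted in the same fits. Of the 18 tested genes of mitochondrial transcription and replication, the 47 of RNA processing, modification and decay, the 13 regulators of biogenesis and the 21 markers of mitochondrial content, edgeR called 0 in either tissue, where 0% of all genes were called in liver and 0.0640% in brain. Their median log2 fold changes were -0.10, 0.01, 0.03 and -0.06 in liver and 0.03, -0.00, -0.13 and -0.04 in brain. At an unadjusted p under 0.05 the 4 lists held 4 higher and 3 lower genes in liver (2.76% and 4.57% of all genes) and 3 higher and 2 lower in brain (5.96% and 5.01% of all genes). The genes named next are those of smallest p in each list. Polrmt, the mitochondrial RNA polymerase, stood at 0.36 in liver (SE 0.15, adjusted p = 0.659 with edgeR), and Polg, the mitochondrial DNA polymerase, at 0.27 (SE 0.13, adjusted p = 0.709 with edgeR). Mterf2 and Mterf1a, members of the mitochondrial termination factor family, stood at 0.39 (SE 0.16, adjusted p = 0.432 with edgeR) and 0.78 (SE 0.35, adjusted p = 0.458 with edgeR) in brain.

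Among the processing genes, Pnpt1, the mitochondrial polynucleotide phosphorylase that degrades RNA, stood at -0.39 in liver (SE 0.12, adjusted p = 0.476 with edgeR) and Rcc1l at 0.40 (SE 0.16, adjusted p = 0.639 with edgeR). In brain Trmt10c, a subunit of the mitochondrial RNase P that frees the 5′ ends of tRNAs, stood at 0.57 (SE 0.20, adjusted p = 0.392 with edgeR) and Trit1, a tRNA-modifying enzyme, at -0.42 (SE 0.17, adjusted p = 0.427 with edgeR). Of the regulators, Pprc1 stood at 0.50 (SE 0.14, adjusted p = 0.450) and Myc at 2.10 (SE 0.64, adjusted p = 0.521) in liver, both with edgeR, and DESeq2 called Myc, where it called 0.238% of genes higher in liver. Ppargc1b was called lower in brain by edgeR with no filter on low counts, where 1.58% of genes were. Sirt3, a mitochondrial deacetylase, stood at 0.33 (SE 0.14, adjusted p = 0.437 with edgeR) and Esrra at -0.42 (SE 0.20, adjusted p = 0.466 with edgeR) in brain. The content markers with the smallest p were Chchd3 (-0.38, SE 0.12, adjusted p = 0.487 with edgeR) and Hspd1 (-0.24, SE 0.15) in liver and Mfn2 (-0.31, SE 0.17) and Vdac2 (-0.21, SE 0.13) in brain. A list of 9 nuclear rRNA-like loci also took in the gene Lars2, and of this list only Gm15564 and Lars2 were in the table. Gm15564 and Lars2 stood at -0.38 (SE 0.20) and -0.07 (SE 0.16) in liver and 0.77 (SE 0.38) and 0.20 (SE 0.26) in brain, none of them called.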

How the data were processed

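The authors made stranded total RNA libraries with depletion of rRNA cDNA, sequenced single-end reads, trimmed them with Trimmomatic, aligned them to mm10 with STAR 2.7.3a and ran featureCounts on exons in reverse-stranded mode. The deposited values are raw counts per gene, whole numbers without normalisation, and were used as deposited. Start, end and strand of all 37 chrM rows were those of GENCODE M21 (mm10). Windows of 100 bases were searched on both strands in all its transcripts, and nuclear copies of at least 95% identity were found with BLAST 2.17.0.

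Counts were fitted with edgeR 4.0.16 in R 4.3.3 (TMM, filterByExpr, robust quasi-likelihood F test, Benjamini-Hochberg adjustment over all genes tested), per tissue for KO against WT and over 12 libraries for tissues and their difference. Standard errors came from the F statistic. DESeq2 1.42.0 was an alternative, as were other size factors, no filter, other library sizes, a GC offset, presence of Y-linked counts as a covariate, all 12 libraries in the genotype fits and the left-out mice. Shares and ratios were compared with exact two-sided permutation tests (SciPy 1.17.1). The scripts were tested on simulated data. Liver and brain of a mouse carry the same letter in the labels, so mouse was also fitted as a block. Deviations of these pairs from their group means over 12574 genes correlated only at -0.0567 to 0.126. Nothing says that the mice of a group share a litter or a day.

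Named were the rRNAs and mRNAs, the 3 most and the least counted tRNAs, tRNAs called by edgeR with the filter, and called genes or the 2 with the smallest p of each nuclear list. The members, the lists and most tests were chosen with earlier results of these data known. CT010467.1, Gm23935, mt-Tl2, mt-Tl1 and mt-Ti in the genotype comparison were picked after their values were seen.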

Additional observations from a re-analysis of the deposited data

Results flagged for a closer look

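The genotype difference lay in opposite directions in liver and brain, with every KO library beyond every WT library in both tissues, for 8 values that overlap in what they count. Single genes were judged after normalisation, and the raw mt-Nd5 shares of the brain groups overlapped. Of all genes, 6.44% had every KO liver below every WT liver and 8.40% every KO brain above every WT brain. The share of genes with both was not counted. As liver difference minus brain difference, taken within mice, the rRNA share of counts stood at -19.5 percentage points, the mt-Rnr1 share at -5.75, the mt-Rnr2 share at -13.7, the share of all chrM rows at -19.6 and the log2 ratio of rRNAs to mRNAs at -1.81. Each of these had the smallest exact permutation p of 0.1, which the separation in both tissues that picked them fixes in advance. In the edgeR fit the same difference was -1.68 for mt-Rnr1, -2.64 for mt-Rnr2 and -0.73 for mt-Nd5 on the log2 scale, with adjusted p = 0.237, 0.132 and 0.396. Groups of 3 libraries are too small for an outlier test of single values, and the values without each mouse are given with the results they change. Olfactory bulb, cerebellum and choroid plexus markers did not overlap between the genotypes in brain, CT010467.1 was highest in KO brain A among the brains, and the extent of rRNA removal in each library is not given in the sources used here. The part of these in the values was not tested.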

How the results depend on the processing

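Mitochondrial genes called moved with the test. In liver KO against WT, 0 became 2 with no filter on low counts, 1 with DESeq2 and 0 to 1 with a mouse left out. In brain 0 became 8 and 3 under the first 2 of these. Between tissues in KO, 11 became 17 with the GC offset and 7 to 16 with a mouse left out (7 without A). For the difference between tissues, 0 became 2 with DESeq2, 1 with mouse as a replicate block and 0 to 1 with a mouse left out. In the nuclear lists 1 biogenesis regulator was called in liver by DESeq2 (Myc) and 1 in brain with no filter (Ppargc1b). The block also removed mt-Tq and mt-Tt from the KO tissue calls.

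Directions reversed for mt-Nd6 in brain without WT brain B (0.091, with a range of -0.41 to 0.091 over the left-out mice). With mitochondrial mRNA as library size, liver minus brain reversed in WT for mt-Co1 (-0.29), mt-Nd1 (-0.33), mt-Rnr2 (-0.11), mt-Tl1 (-0.047) and mt-Ty (-0.82), and in KO for mt-Nd4 (-0.18) and mt-Ty (-0.26), all called before, and for mt-Nd1 (-0.61) and mt-Nd6 (-0.52), not called before and then called lower. With the GC offset it reversed in KO for mt-Rnr2 (0.24), mt-Tq (0.34) and mt-Tt (0.76), called before, and for mt-Rnr1 (1.29), mt-Tf, mt-Ti, mt-Ta, mt-Tn, mt-Tr and mt-Tl2, which lay below 0 before and were then called higher. In WT, mt-Tr (-0.95 before) and mt-Nd6 (near 0 before) were likewise called higher with the GC offset. mt-Tw in WT, at 0.45 before and not called, was called lower with mitochondrial mRNA as library size.

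Over counts without the rRNAs, the rRNA measure differed by 19.6 percentage points (KO minus WT, brain) and -25.3 (liver minus brain, KO), and the mRNA share by -0.221 and 0.546 (KO minus WT, liver and brain), -0.137 (liver minus brain, KO) and 0.246 (6 mice, no longer passing). Over chrM counts the rRNA share differed by 6.28 (KO minus WT, brain) and -7.55 (6 mice, now passing), and the mRNA share by 8.19 and -6.23 (KO minus WT, liver and brain) and 14.9 (liver minus brain, KO). Values of 6 mice pool both genotypes, in which the rRNA share of all counts, liver minus brain, differed by 2.39 (WT) and -17.1 (KO). With a mouse left out, liver minus brain ranged from -9.86 to -4.07 for the rRNA share of 6 mice (passing without D and without E), from 0.161 to 0.423 for the mRNA share in KO, and for log2 mt-Rnr2 to mt-Rnr1 from -0.62 to 0.19 in WT, -1.30 to -0.97 in KO and -0.90 to -0.55 over 6 mice. The last, -0.68 over all mice, did not pass with pairs by mouse as a replicate block (exact p = 0.0938) or without any of A, C, D or F. The ratio of complex IV to complex I mRNAs could not be computed without the genes copied on chromosome 1, nor that of complex V at all. The cause of these changes was not tested, and 3 libraries a group limit every call.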

Other observations

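Other nuclear copies of mitochondrial genes held few reads as well. On chromosome 2, Gm13340 aligned to all 1545 bases of mt-Co1 at 97.61% identity and held 11 to 90 counts per library, Gm13339 aligned to 510 bases of mt-Nd2 at 96.67% and held 1 to 21, and Gm13341 aligned to mt-Co2 at 95.91% and held 2 to 11. On chromosome 13, Gm4076 aligned to 954 bases of mt-Nd5 at 95.18% and held 0 to 3 counts.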
